A study of Homo sapiens with 7 samples.

Results

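Rb occupancy was examined at the genes of the RNA polymerase I and III machinery, represented by 10 of the 19970 protein-coding genes annotated on chromosomes 1 to 22 and X. The members were chosen for what their products do. They comprised 4 genes of the Pol I system (POLR1A, POLR1B, RRN3 and UBTF) and 6 of the Pol III system (POLR3A, POLR3B, BRF1, BDP1, GTF3C1 and GTF3C2). A member was taken to have a promoter peak in a list when a peak reached into the window that opens 2000 bp before any of its GENCODE transcription starts and closes 500 bp after it, and peaks elsewhere within the gene were recorded as well.

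Rb was profiled by CUT&RUN, in which an antibody-tethered nuclease cuts out the DNA around a bound protein, in the ZR-75-1 cell line, which was derived from a breast carcinoma and expresses the oestrogen receptor. Parental cells were exposed to the CDK4/6 inhibitor palbociclib (500 nM) or to DMSO for 4 days, with 2 Rb libraries per treatment. RB1-knockout (RB1 KO) cells, which per the study's methods were expanded from sorted single cells and so stand for a clone, gave 1 Rb library per treatment. A further library of palbociclib-treated parental cells was made with a non-targeting IgG2a antibody. Each library was deposited as its own list of peaks, so a peak is present or absent per list, and its height is the fold enrichment, the number of overlapping fragments at its summit set against the background nearby. The groups with a single library have no replicate check.

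RNA polymerase I transcribes the ribosomal RNA precursor, and RNA polymerase III transcribes transfer RNAs, 5S ribosomal RNA and other short RNAs. Both feed the making of ribosomes, and Rb is known as a restraint on both systems through contacts of the Rb protein with UBF, the product of UBTF, and with TFIIIB, the factor that contains BRF1 and BDP1. The promoters considered here are those of the genes that encode this machinery. They are themselves transcribed by RNA polymerase II, and Rb on them is a different matter from Rb on the ribosomal or transfer RNA genes.

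The DMSO lists held 996 and 816 peaks, the palbociclib lists 8399 and 8256, the RB1 KO lists 65 and 51, and the IgG2a list 2648. The fragment pileup and the background at each summit could be recovered from the deposited values. The lowest background of a list, which scales with sequencing depth, was 0.571 and 0.465 fragments in the DMSO lists, close to the 0.516 and 0.549 of the palbociclib lists. Every peak of the DMSO lists reached a −log10 p of 5.23 and 5.33, whereas the palbociclib lists went down to 4.15 in both libraries, so a peak of a given height entered a palbociclib list more easily.

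A few sequences, chosen for the motifs or the base composition they show and with at most 24 untranslated bases each, are given to let the composition of the bound DNA be seen beside the values given later. Each is from hg38, on the strand of the gene and read 5′ to 3′. Capitals mark matches to the motifs searched, on either strand. At POLR1A the first sequence (chr2:86105727-86105800, minus strand) covers the summit of the peak at the start codon, with a CHR element, TTTGAA, read on the opposite strand. The second (chr2:86106309-86106429) covers the upstream summit of the second palbociclib library. The RRN3 sequence (chr16:15094303-15094392, minus strand) runs over the transcription start, with a CCAAT box and an ETS site, CCGGAAGT, both on the opposite strand. The UBTF sequence (chr17:44218790-44218905, minus strand) covers both summits inside the first intron, with GGGCGG boxes of the SP/KLF class. The GTF3C1 sequence (chr16:27549592-27549702, minus strand) shows a run of such boxes.
POLR1A start codon: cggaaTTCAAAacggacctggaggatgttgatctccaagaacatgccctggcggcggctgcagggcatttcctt
POLR1A upstream: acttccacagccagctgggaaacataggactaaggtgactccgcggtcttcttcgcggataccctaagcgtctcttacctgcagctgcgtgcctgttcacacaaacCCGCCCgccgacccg
RRN3: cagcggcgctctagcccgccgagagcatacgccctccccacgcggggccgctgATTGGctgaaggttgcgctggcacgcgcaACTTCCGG
UBTF: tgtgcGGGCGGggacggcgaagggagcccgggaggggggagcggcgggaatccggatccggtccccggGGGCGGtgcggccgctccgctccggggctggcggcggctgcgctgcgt
GTF3C1: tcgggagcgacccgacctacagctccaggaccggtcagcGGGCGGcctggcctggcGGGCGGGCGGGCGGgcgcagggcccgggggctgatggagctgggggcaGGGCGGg

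In palbociclib-treated parental cells Rb was found at the promoters of 9 of the 10 members, and in DMSO-treated cells at none. Of all protein-coding genes 43.7% were called in at least 1 palbociclib list and 6.59% in at least 1 DMSO list. A peak was called in both palbociclib libraries at 6 members (POLR1A, POLR1B, RRN3, UBTF, BRF1 and BDP1), in a single palbociclib library at 3 (POLR3B, GTF3C1 and GTF3C2), and in neither at POLR3A. The first palbociclib list held 8 of the members and 39.6% of all genes, and the second 7 and 39.0%. Every parental list was also reduced to the 816 best peaks, the length of the shortest. No member was then left in both palbociclib lists or in a DMSO list. Of all genes, 3.82% were left in both palbociclib lists and 2.67% in both DMSO lists. The cut kept 816 of 8399 and 8256 palbociclib peaks, and the members had no DMSO peak before it. It therefore cannot show whether the groups differ at the members. All 4 Pol I members had a peak in both libraries, against 2 of the 6 Pol III members. This difference was not tested, because the members were chosen by name. It rests on low peaks: with a fold enrichment of at least 5 required, POLR1B and RRN3 dropped out. POLR1A and UBTF then remained beside BRF1 and BDP1.

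Read against the rest of the genome, 6 of 10 compares with 34.9% of protein-coding genes that met the same rule in the palbociclib libraries. The 6 members also had no DMSO peak, a pattern met by 28.4% of protein-coding genes. No member had a promoter peak in both DMSO libraries, where the share of all genes was 2.90%, and none had one in either. A gene with more annotated starts has more promoter sequence in which to find a peak. The members had a median of 12.5 starts (range 4 to 20), whereas the median of protein-coding genes was 5. Among the 11962 genes with 4 to 20 starts, 42.6% had a peak in both palbociclib libraries and 3.64% in both DMSO libraries. A count of 10 members chosen by name does not show that the group differs from these shares.

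The antibody controls held nothing at the members. No member had a promoter peak in an RB1 KO list, where 2 genes, or 0.0100% of all, had one. Only 4 and 5 peaks of the RB1 KO lists lay on these chromosomes. The weakest peaks of the RB1 KO lists had a −log10 p of 7.06 (DMSO) and 6.33 (palbociclib), higher than in any parental list. Some of the members' palbociclib peaks were weaker than both, such as that of POLR1B in the second library (4.73). The absence of such peaks from the RB1 KO lists was within what these lists could have missed. No member had one in the IgG2a list either, against 1.95% of all protein-coding genes. The Rb peaks were themselves called against IgG, so absence from the IgG2a list may not be an independent check.

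**Figure D1:**
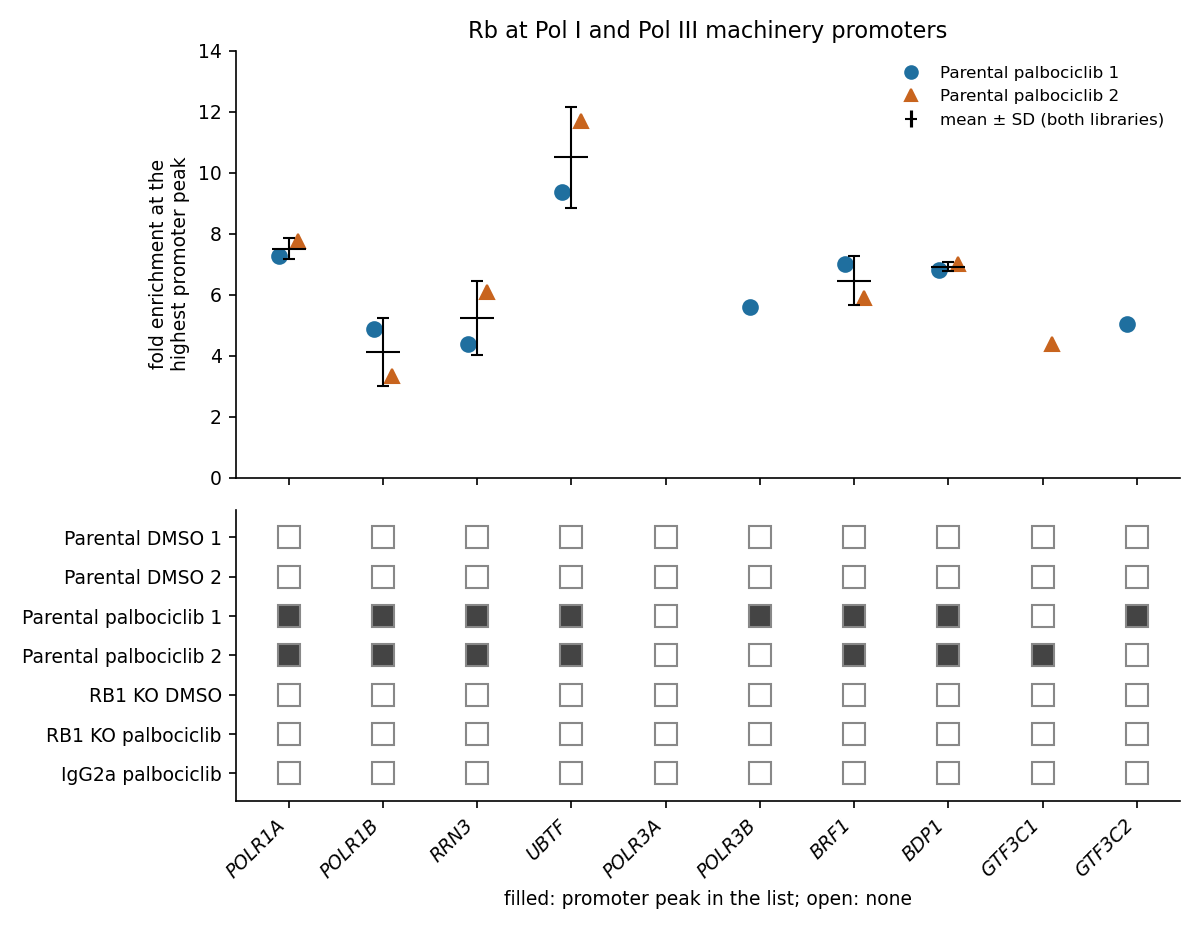
Upper panel, fold enrichment at the highest promoter peak of each member (y axis) in the palbociclib libraries, with the mean ± SD (n = 2) where both had a peak. Lower panel, presence (filled) or absence (open) of a promoter peak in each of the 7 lists. The rows for DMSO, RB1 KO and IgG2a are empty for all 10 members, and UBTF stands highest at 9.38 and 11.7.

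Palbociclib is compared with DMSO here by presence only. The fold change at the members could not be computed, because none had a peak in a DMSO list and a list gives no value where it has no peak. The limit this sets can be stated in fragments. At the local backgrounds of the members' palbociclib peaks, a site would have needed a pileup of 6 to 14 fragments to enter a DMSO list. The palbociclib peaks at the members had pileups of 7 to 29 fragments. Of the 22 peaks, 3 had fewer fragments than a DMSO list would have required. They were the POLR1B peak of the second library (11 fragments, 12 required) and BRF1 peaks of 10 fragments where 11 were required, 1 in each library. The absence of these from the DMSO lists was within what the stricter DMSO lists would have missed. Others were only just above the requirement, such as GTF3C2 (7 fragments, 6 required) and GTF3C1 (12 fragments, 11 required). Their absence from the DMSO lists says little as well.

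UBTF encodes UBF, the HMG-box protein that keeps ribosomal RNA genes in an open state. It had the highest fold enrichment of the members in both libraries, 9.38 and 11.7, a mean of 10.5 ± 1.65 (SD, n = 2). Its peak was 943 bp wide in each library, the widest at any member. The pileup at the summit was 22 and 29 fragments, where a DMSO list would have required 9 or 10. The site (chr17:44218535-44219568) is in the first intron of the canonical transcript. Its summits were 245 and 230 bp inside the nearest annotated start, an alternative one, and in the second library 2796 bp from the start of the gene record. No other gene starts within 1000 bp.

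POLR1A encodes the largest subunit of Pol I. It carried a pair of separate sites, each called in both palbociclib libraries. The higher site lay upstream (chr2:86106158-86106482), with fold enrichments of 7.26 and 7.75 and a mean of 7.50 ± 0.346 (SD, n = 2). This stretch is shared with the divergent gene PTCD3, which encodes a mitochondrial ribosome-associated protein, and the higher summit was 121 bp inside the PTCD3 start. Which of the genes the peak belongs to cannot be told apart from position. The lower site (chr2:86105632-86105905) had fold enrichments of 5.28 and 6.46, with the summit at the same base in both libraries. That base is in the first coding exon, at the start codon printed above, and lay 99 bp inside the nearest POLR1A start. PTCD3 starts 449 bp from that base.

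RRN3 encodes TIF-IA, the factor that brings Pol I to the ribosomal promoter. Its peak (chr16:15094126-15094392) had fold enrichments of 4.38 and 6.09, a mean of 5.24 ± 1.21 (SD, n = 2). The summits were 1 and 43 bp upstream of the nearest start, which is a different annotated start for each. A processed pseudogene on the opposite strand starts 57 bp from the higher summit. RRN3 has pseudogene copies on chromosome 16, so the 50 bases around the summit were searched for in chromosomes 1 to 22 and X, and they occurred once. Among the copies, RRN3P3 had a promoter peak of its own in both palbociclib libraries (5.84 and 6.41), while RRN3P1 and RRN3P2 had none.

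POLR1B encodes the second largest subunit of Pol I. Its fold enrichments were 4.89 and 3.33, and their mean of 4.11 ± 1.11 (SD, n = 2) was the lowest of the members called in both libraries. The peak of the second library stood at the 1.49th percentile of that list's promoter peaks. The summits (chr2:112541998-112542421) were 54 bp upstream and 42 bp downstream of the nearest start, which is a different annotated start for each.

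Of the TFIIIB subunits, BDP1 gave the closest replicates. Its fold enrichment was 6.81 and 7.02, a mean of 6.92 ± 0.151 (SD, n = 2), at a single site (chr5:71455681-71456147). The summits were in the 5′ untranslated part of exon 1, 85 and 97 bp inside the nearest start, and no other gene starts within 1000 bp.

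BRF1, the TFIIB-related subunit of TFIIIB, is a long gene with 20 annotated starts, and it held 4 sites. The first (chr14:105248419-105249183) lay at an internal start, in intron 5 of the canonical transcript, with fold enrichments of 7.02 and 5.84. The start of the opposite-strand gene BTBD6 is 208 bp from its higher summit. The next site (chr14:105300583-105301381) covered the canonical start, with 4.78 and 5.89, and a start of the opposite-strand gene PACS2 is 433 bp from its higher summit. The highest peak of BRF1 was therefore at a different site in each library, and the gene's mean of 6.46 ± 0.801 (SD, n = 2) mixes both. The 2 remaining sites were low and lay 40 and 509 bp inside starts of PACS2. One of these (chr14:105314251-105314544) was the only peak within a member gene but outside its promoter windows, with 3.74 and 4.84. The other (chr14:105315346-105315502) was called in the second library alone, with 3.71.

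POLR3A and POLR3B encode the subunits that form the catalytic centre of Pol III. POLR3A had no peak in any of the 7 lists, in its promoter windows or within the gene. The summit nearest to a POLR3A start was 4550 bp away in the first palbociclib library (fold enrichment 4.08) and 55363 bp away in the second. POLR3B had a peak of 5.59 in the first palbociclib library (chr12:106357814-106358030), in coding exon 1 and 150 bp inside the start. In the second library the nearest summit was 364184 bp from a POLR3B start. At the same background, 6 fragments would have sufficed there for a call, and the first library had 10.

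GTF3C1 and GTF3C2 encode subunits of TFIIIC, which recognises the internal promoters of transfer RNA genes. Each had a peak in a single library. That of GTF3C1 (chr16:27549666-27549833) was in the second library, with a fold enrichment of 4.39 and 12 fragments, in coding exon 1 and 221 bp inside the start. The first library would have called 9 fragments at this background. The divergent gene KATNIP starts 441 bp from that summit. That of GTF3C2 (chr2:27356323-27356560) was in the first library, with 5.03 and 7 fragments, in intron 1, and the second library would have called 5. The opposite-strand non-coding gene GTF3C2-AS2 starts 198 bp from the GTF3C2 summit. The 3 members with a peak in a single library were thus not separated from the rest by height, since POLR1B and RRN3, with a peak in both, had values as low.

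**Figure D2:**
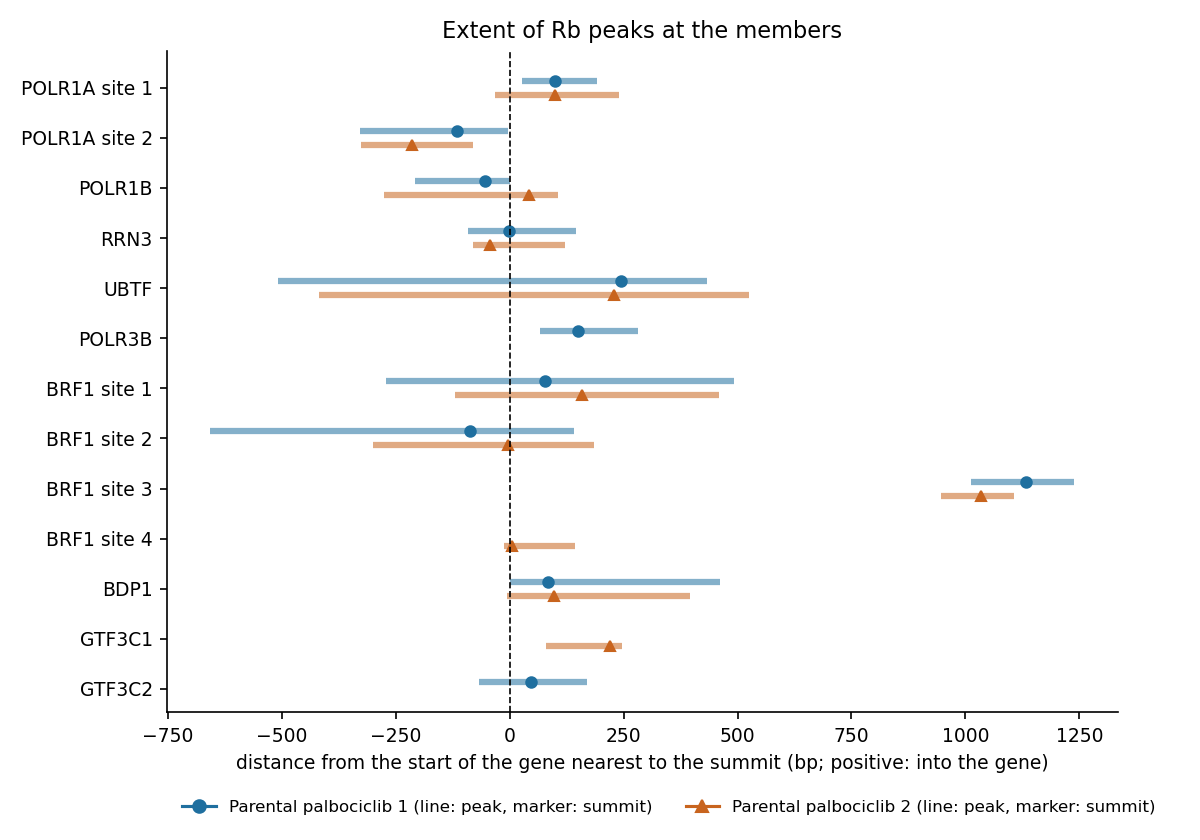
Extent (line) and summit (marker) of every peak at the members in the palbociclib libraries, as the distance in bp from the start of the gene nearest to the summit, positive into the gene. Apart from the BRF1 site at 1133 and 1035 bp, the summits lie within 245 bp of a start, and UBTF has the widest peaks at 943 bp.

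In all, the members held 13 sites, 9 of them called in both palbociclib libraries and 4 in a single library, with 11 peaks in each list. The width of the highest promoter peak had a median of 282 bp over 8 members (range 210 to 943) in the first library and 384 bp over 7 (168 to 943) in the second. For all promoter peaks the median was 483 and 470 bp. The median distance from summit to nearest start of the member was 81 bp (range 1 to 245) and 97 bp (4 to 230). All promoter peaks had a median of 89 bp in both lists. That distance is to the nearest start of any protein-coding gene, so the measures differ. The members' distances are to any of their own annotated starts, of which they have more than most genes. From the start of the gene record alone the members' medians were 300.0 and 221.0 bp. Another protein-coding gene started within 1000 bp of a summit at 3 of the 9 members with a peak (POLR1A, BRF1 and GTF3C1).

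Most of the members' peaks were lower than the middle of the promoter peaks. The first palbociclib list held 7290 promoter peaks with a median fold enrichment of 7.25 (quartiles 5.11 and 11.2), and the second 7180 with a median of 7.17 (5.06 and 11.3). Of the members with a peak, 2 of 8 and 2 of 7 exceeded the median of their list, POLR1A and UBTF in both. UBTF stood at the 65.7th and 76.3rd percentile and POLR1A at the 50.1st and 54.5th. The POLR1A peaks had 10 and 11 fragments over 0.516 and 0.549, the lowest background of each list. Those of BDP1 had more fragments, 19 and 17, over a background of 1.94 and 1.56, so the rank by fold enrichment depends on the background. The others ranged from the 12.9th percentile (RRN3, first library) to the 48.1st (BRF1) in the first library and from the 1.49th (POLR1B) to the 48.4th (BDP1) in the second.

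**Figure D3:**
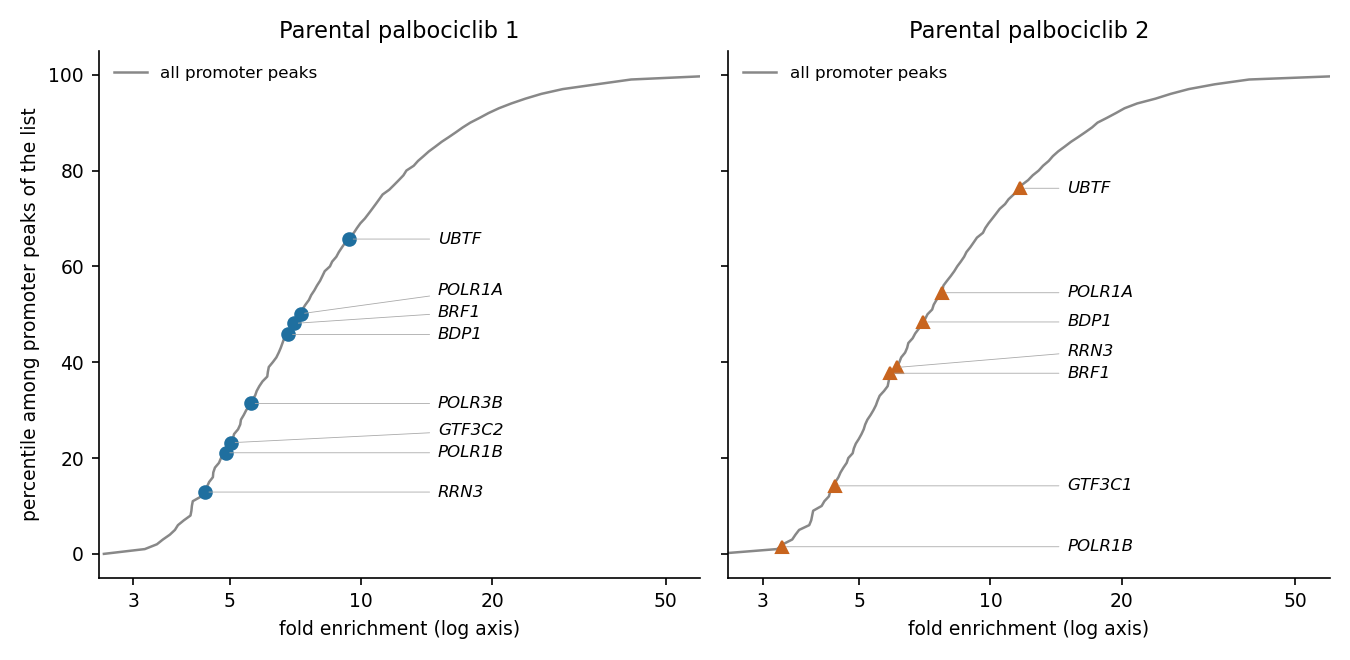
Percentile (y axis) of each member's highest promoter peak among all promoter peaks of the first (left) and second (right) palbociclib list, against fold enrichment on a log axis cut at 60. The grey curve is the distribution of 7290 and 7180 promoter peaks, and only UBTF and POLR1A lie above the 50th percentile in each.

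Motifs were searched within 100 bp of the higher summit at the 12 promoter sites, on both strands and with overlapping matches counted. The E2F motif was spelled as TTTCCCGC, TTTCGCGC, TTTGCCGC or TTTGGCGC. It was found at none of the 12 sites, and in 5.44% of 14470 promoter peak windows of the palbociclib lists. The CHR element, TTTGAA, was found at POLR1A alone, against 3.36% of windows. CCGGAAGT, the ETS motif, was found at POLR1B and RRN3 (3.14% of windows), and CCAAT, the NF-Y motif, at RRN3 alone (24.2%). The cyclic AMP response element TGACGTCA (1.02%) and the NRF1 palindrome (1.18%) were at none. GGGCGG, the SP/KLF box, occurred at 7 of 12 sites in 5 members, against 68.7% of windows. The GC content of the windows ranged from 54.2% at the POLR1A start codon to 81.1% at UBTF, and the median over all promoter peaks was 70.6% (quartiles 65.2 and 75.6). A motif match is a description of the letters, and its absence from a window says nothing of the factor.

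The other genes of the machinery were followed with a list of 37: further Pol I and Pol III subunits and those shared with Pol II, the Pol I selectivity factor SL1, TTF1, BRF2, the rest of TFIIIC, GTF3A, the SNAPc complex and MAF1. Of these, 20 were called at the promoter in both palbociclib libraries, 4 in a single library and 13 in none. The shares given above were 34.9% of all genes and 42.6% of those with 4 to 20 starts. The counts by complex that follow are to be read beside the same shares. The median of their mean fold enrichments was 7.74, and that of the 6 members was 6.69. In neither RB1 KO list was any of the 37 present. The IgG2a list held POLR1E (4.53), whose summit there was 297 bp inside the start and whose region overlapped neither of its Rb peaks.

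POLR1G, a Pol I subunit, had the highest values of the list, 26.3 and 28.6 with palbociclib, a mean of 27.4 ± 1.60 (SD, n = 2), but the summit is 662 and 695 bp upstream of its start and closer to that of PPP1R13L. It was also present in the first DMSO library, at 5.70. TAF1D and TAF1B, subunits of SL1, had means of 20.9 ± 2.17 and 12.9 ± 3.24 (SD, n = 2). POLR3F and SNAPC2 of the Pol III system stood between these. TBP, a component of SL1 and of TFIIIB, had a mean of 9.52 ± 3.43 (SD, n = 2). Of the 6 further Pol I subunits 4 had a peak in both libraries, and of the 5 SL1 genes 3.

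Among the 8 further Pol III subunits, 5 had a peak in both palbociclib libraries, led by POLR3F at 17.6 ± 0.651 (SD, n = 2), whereas POLR3E was the lowest at 3.37 ± 0.187. TFIIIC had 2 of 4 (GTF3C4 and GTF3C5, means 5.11 and 4.24), SNAPc, which serves the U6-type Pol III promoters, had 3 of 5, and the subunits shared with Pol II had 2 of 5. MAF1, the general repressor of Pol III, had 9.65 and 11.8 with palbociclib and 5.49 in the second DMSO library. A start of SHARPIN is 156 and 246 bp from the palbociclib summits and 419 bp from the DMSO summit, so the promoter is shared. BRF2, the TFIIIB subunit used at U6-type promoters, GTF3A and TTF1 had no peak in any parental Rb list.

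**Figure D4:**
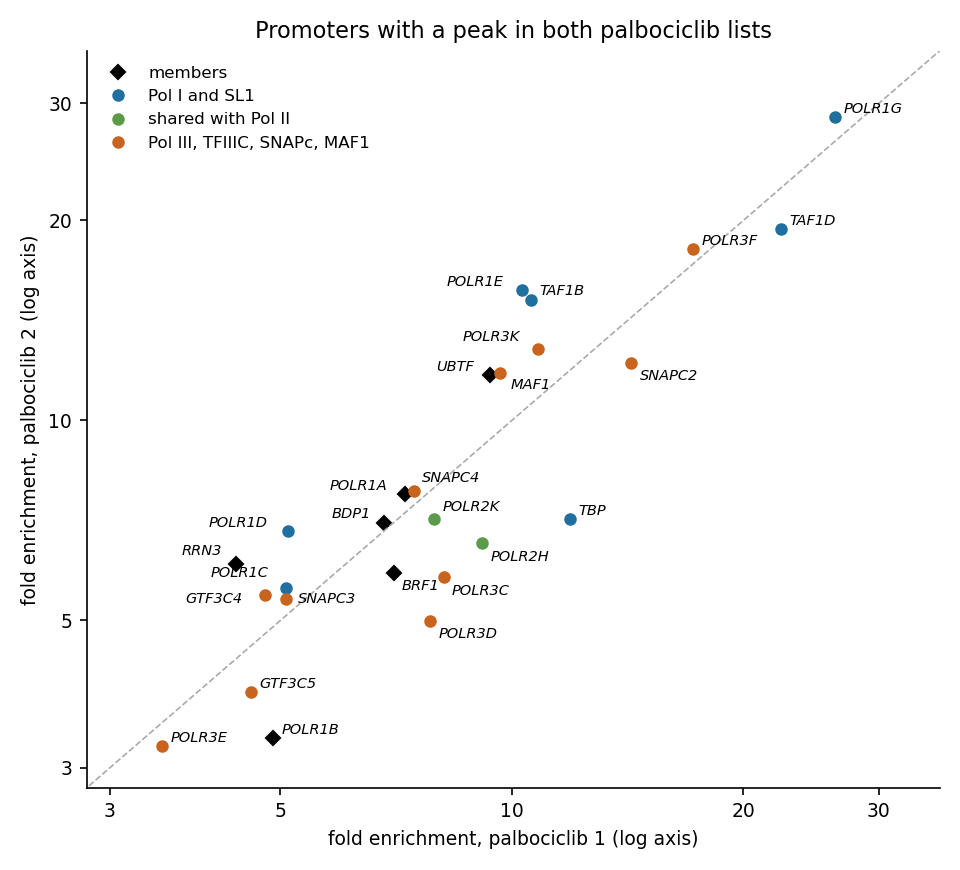
Fold enrichment of the highest promoter peak in the first (x axis) and second (y axis) palbociclib library, on log axes, for the 6 members (diamonds) and 20 further genes of the machinery (circles) with a peak in both, and the line of equal values. The members reach from POLR1B (4.89 and 3.33) to UBTF (9.38 and 11.7), and POLR1G stands highest.

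POLR3K, a small Pol III subunit, was the only gene of either list with a promoter peak in all 4 parental Rb libraries, and so the only one where heights can be compared. It was picked out after its values were seen. Promoter peaks of all genes had a median fold enrichment of 5.79 and 6.14 in the DMSO lists. In the palbociclib lists the medians were higher, 7.25 and 7.17. At POLR3K both DMSO values (3.27 and 3.55) lay below both palbociclib values (10.8 and 12.8). How often other genes called in all 4 lists separate in this way was not tested. The POLR3K ratio was 3.45-fold (1.79 on the log2 scale). The DMSO peaks of POLR3K did not overlap each other, with summits 183 bp inside and 141 bp upstream of its start. The palbociclib summits were 140 and 119 bp upstream, so the ratio mixes heights at different positions. The exact permutation test, two-sided, gave p = 0.333, the smallest value that 2 libraries against 2 can reach. The palbociclib peaks were 1215 and 871 bp wide and the DMSO peaks 163 and 153 bp. The start of SNRNP25 on the opposite strand is 80 and 101 bp from the palbociclib summits, so the promoter is shared.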

How the data were processed

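CUT&RUN peak lists of 7 libraries were used. Per the study's methods and the submitters' processing notes, reads were aligned to hg38 with Bowtie2 2.3.4.1 and peaks were called per library with MACS2 2.2.7.1 against IgG at a q-value cutoff of 0.05. Fold enrichment, a ratio of pileup plus 1 to background plus 1, was deposited by the authors, as were −log10 p, −log10 q and a score that rescales −log10 q. The control behind the IgG2a list itself is not given in the sources used here. The lists carry no read totals.

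Groups and replicate numbers were read from the titles, and the study describes replicates as biological replicates of a single experiment. Promoters were defined with GENCODE 44, and an overlap of 1 bp counted. Where several peaks met a member's windows, the highest was taken. Pileup and background were solved from fold enrichment and p, after testing on simulated data, and the −log10 p they imply differed by at most 0.00151 from the deposited one. The 43 peaks above a −log10 p of 250 were not solved. Contigs were left out, and 1 gene of the wider list is not reported here. Members and lists were chosen with earlier results of these data known, and all members were named, so no p-values were computed over them. The single test was an exact permutation test over libraries. Motifs, sequences and the search for repeated bases used hg38. Alternatives covered starts, windows, thresholds, list length and left-out libraries. Python 3.11.15, NumPy 2.4.6, SciPy 1.17.1 and samtools 1.23.1 were used.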

Additional observations from a re-analysis of the deposited data

How the results depend on the processing

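The count of 6 members with a peak in both palbociclib libraries, and in neither DMSO library, stayed at 6 with starts of coding transcripts, with 1000 bp to each side of a start and with the summit required inside the window. It was 4 with the start of the gene record (without UBTF and BRF1), where 29.2% of all genes were called in both palbociclib libraries and 23.8% in those alone. It was also 4 at a −log10 q of at least 5 (26.8% and 23.3%) or a fold enrichment of at least 5 (27.2% and 22.3%), in both cases without POLR1B and RRN3. With every parental list reduced to the 816 best peaks it was 0 for both counts, and the shares of all genes were then 3.82% and 0.731%. With a −log10 p of at least 5.33 in all 4 lists, chosen after seeing the data, it was 5, without POLR1B (32.9% and 26.4%). With a replicate left out it ranged from 6 to 8. Without the first palbociclib library it was 7, with GTF3C1 added (39.0% and 32.4% of all genes). Without the second it was 8, with POLR3B and GTF3C2 added (39.6% and 33.1%). The counts for DMSO, RB1 KO and IgG2a were 0 in every setting run, leave-one-out included (0 to 0).

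In the first palbociclib library the width was 424.8 bp as a mean over members and 613.0 bp at a −log10 q of at least 5. The summit distance was 108.0 bp (first library) and 132.0 bp (second) from starts of coding transcripts, and 300.0 and 221.0 bp from the start of the gene record. No paired analysis was possible because no member had a peak in a DMSO library. For POLR3K the replicate block gave a log2 ratio of 1.79 (exact sign-flip test, two-sided, p = 0.5), and the other settings gave 1.66 to 1.91. Peaks near the cutoff rest on few fragments, so presence in a single library of 2 is uncertain, and height is known only where a peak was called. The groups with 1 library have no measure of spread.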

Other observations

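The RNAs that Pol III makes were looked up in the same lists. Of 20 named Pol III transcripts 19 were found in the annotation, and 5 of them had a peak around the start in both palbociclib libraries and none in DMSO, RB1 KO or IgG2a. No share over other short genes is given beside this count. RN7SK, the RNA that holds the elongation factor P-TEFb inactive, had fold enrichments of 6.60 and 4.52. RMRP, the RNA of a ribosomal RNA-processing ribonuclease, had 4.78 and 9.12, and RPPH1, the RNA of ribonuclease P, had 6.93 and 5.85. RNY1 had 9.65 and 6.37 and the U6 gene RNU6-9 had 4.48 and 4.29. A start of a protein-coding gene lay within 1000 bp of the summit at 4 of the 5 (GSTA4 at RN7SK, CCDC107 at RMRP, PARP2 at RPPH1 and MED16 at RNU6-9), and RNY1 was the exception.

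The RNA genes served by the machinery were then looked up in RefSeq, a choice made after seeing the data. Of 443 transfer RNA genes, 10 were overlapped by a peak of the first palbociclib list and 14 by one of the second, 7 of them in both, and 0 in the DMSO, RB1 KO and IgG2a lists. No share over other short genes is given beside these counts, so they do not show whether transfer RNA genes stand out. Nearby starts of protein-coding genes are not given for them either. None of the 17 genes for 5S RNA and none of the 4 for the 45S precursor was overlapped in any list. Many of these genes exist in near-identical copies, so their presence or absence in the lists is uncertain. Per the study's methods, reads from regions blacklisted for ChIP were also removed. Whether these RNA genes lie in such regions was not checked.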
